A study of Mus musculus with 8 samples.

Results

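The comparison described here set mice with an inducible deletion of the histone methyltransferase G9a in sensory neurons against wild-type littermates during inflammation of a paw. RNA sequencing libraries were compared across all genes; their source was the dorsal root ganglion, which lies next to the spinal cord and houses the cell bodies of neurons that sense touch, temperature and pain. There were 2 libraries of the inducible knockout after complete Freund's adjuvant (CFA, a suspension that causes lasting inflammation where it is injected) and 2 of the wild type after CFA, which makes 4 of the 8 libraries of the series. The knockout (G9a-iKO, here iKO) was homozygous for a floxed G9a allele (G9aflox/flox, gene Ehmt2) and carried Avil-iCreERT2/AJwo, an inducible Cre recombinase under control of Avil, a gene of sensory neurons. The wild type (WT) had no Cre, and whether it carried floxed alleles was not stated. CFA went into the left paw and tissue was taken 14 days later. The other 4 libraries, 2 WT and 2 iKO after vehicle, had a part in the estimate of spread and served for setting the genotype difference under CFA beside the one without it. As a model, the line should lose G9a only in cells in which Avil drove Cre, while glia, vessels, connective tissue and blood cells of the ganglion keep it. Age, sex, the inducing treatment, the side and level of the ganglia, and whether a library stood for 1 animal or a pool were not given in the sources used here, so p-values measure the spread between libraries, which may be in part technical.

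G9a places methyl groups on lysine 9 of histone H3, mostly in partnership with its relative GLP (Ehmt1), and the resulting mark is tied to silenced genes in euchromatin. In the dorsal root ganglion G9a is known for its part in silencing ion channel and receptor genes after nerve injury. Ganglia hold several classes of sensory neurons, satellite glia that wrap their cell bodies, Schwann cells, macrophages, endothelium and fibroblasts, and a bulk library mixes the RNA of all of them.

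The 4 CFA libraries held between 32176987 and 41617192 reads assigned to genes, within the series' range of 26312614 to 42971823, and 20235 of the 25780 genes in the files had enough reads to be tested. The WT CFA libraries stood apart from each other. The median absolute difference of a gene between the WT CFA pair was 0.468 on the log2 scale, against 0.177 between the iKO CFA pair. The Pearson correlation of log2 CPM (counts scaled for library size and composition) across genes, a description over genes that are not independent, was 0.969 between the WT CFA libraries. WT CFA library 1 had a higher value, 0.984, with each iKO vehicle library, and WT CFA library 2 a higher value with each iKO CFA library (0.975 and 0.974). Mitochondrial transcripts took 3.94% and 12.1% of the reads in WT CFA libraries 1 and 2, and 6.09% and 5.95% in the iKO CFA pair. The summed CPM of 15 red cell genes was 399 and 1820 in the WT CFA libraries and 1914 and 1810 in the iKO CFA libraries. The WT vehicle libraries in turn held a plasma cell and lymphocyte signal (summed CPM of 22 lymphocyte genes 2222 and 949) that was between 8.81 and 84.5 in the other 6 libraries. Any share of these differences in the results below was not tested. Beside the median of a gene list, those without WT CFA library 1 and without library 2 are given in this order; over all genes they were 0.049 and 0.041.

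Under CFA, 345 of 20235 genes (1.7%) passed an adjusted p of 0.05 between the genotypes by edgeR's quasi-likelihood F-test with Benjamini-Hochberg adjustment. Of these, 303 (1.5% of all genes) were higher in the iKO and 42 (0.208%) lower. These shares are the background for each count of called list members below. Both libraries of one genotype lay beyond both of the other in all 345, which a call with 2 libraries per group nearly requires. Over all genes both iKO values lay above both WT values in 21.6% and below them in 16.7%. Of the 345 genes, 342 differed by more than 1 on the log2 scale. The median log2 fold change over all genes was -0.02, with 9696 of the 20235 above zero, and 2967 genes had an unadjusted p under 0.05. Leaving out WT CFA library 1 or 2 raised the number called, and nearly all of the 345 genes passed again. Passing without 1 of these libraries, also for the gene groups below, is thus a weak check. The number called rested on the libraries: leaving out WT CFA library 2 gave 5819 calls, of which 2474 were higher and 3345 lower, leaving out WT CFA library 1 gave 711, and leaving out iKO CFA library 1 or 2 gave 88 or 73. Without vehicle library 1 or 2 of the WT it was 198 or 187, and without that of the iKO 200 or 209.

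**Figure D1:**
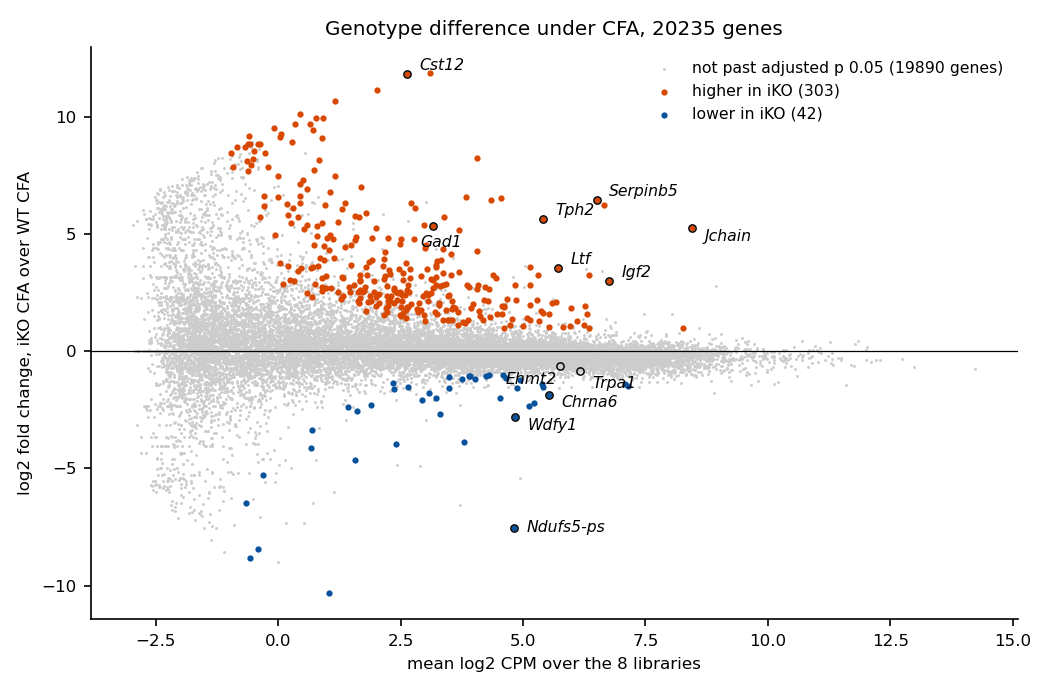
Log2 fold change of iKO CFA over WT CFA (vertical axis) against mean log2 CPM over the 8 libraries (horizontal axis), 1 point per tested gene; coloured points passed adjusted p 0.05 (303 higher, 42 lower) and circled genes are named in the text. The called genes lie mostly above the zero line, and Ehmt2 and Trpa1 lie below it among genes that did not pass.

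Ehmt2 itself checks the labels. Its level was 74.2 and 61.3 CPM in the WT CFA libraries and 44.95 and 44.2 CPM in the iKO CFA libraries. Both iKO libraries were below both WT ones, and the log2 fold change was -0.60 ± 0.18 (SE, n = 2 libraries per group), which did not pass over all genes (adjusted p = 0.154, edgeR quasi-likelihood test). The call was made under DESeq2 and when WT CFA library 2 was left out (adjusted p = 0.0032), but not without library 1 (0.116). Under vehicle the same difference was -1.09 (adjusted p = 0.00655), from 74.4 and 65.4 to 34.0 and 31.6 CPM, and the interaction test between the 2 differences did not pass (adjusted p = 0.214). Where in the gene the reads lay was not resolved by counts per gene, so reads from the floxed part and from the rest of the transcript were not separated.

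Trpa1 and Trpv1, cation channels through which nociceptors sense irritants and heat, were both lower in the iKO under CFA without passing the test. Trpa1 measured 124 and 77.2 CPM in the WT and 54.7 and 57.5 CPM in the iKO (log2 fold change -0.84 ± 0.26, adjusted p = 0.183, edgeR). Trpv1 measured 199 and 182 CPM against 142 and 139 CPM (-0.44 ± 0.21, adjusted p = 0.380, edgeR). Groups did not overlap for either gene, and both WT values lay above both iKO values in 16.7% of all genes. Under vehicle the values were in the other order. Trpa1 was at 40.7 and 58.1 CPM in the WT and 87.9 and 74.5 CPM in the iKO. Trpv1 was at 66.7 and 98.0 CPM against 130.4 and 139.6 CPM. The difference there did not pass for Trpa1 (0.72, adjusted p = 0.0927, edgeR) and passed narrowly for Trpv1 (0.71, adjusted p = 0.0495). For both, the genotype difference under CFA differed from that under vehicle by the interaction test (adjusted p = 0.0384 for Trpa1 and 0.0473 for Trpv1, edgeR). That test does not ask whether the signs are opposite. Medians of the pan-neuronal and channel lists also changed sign. From vehicle to CFA, the median went from 0.61 to -0.53 for 24 pan-neuronal genes and from 0.55 to -0.27 for 35 transduction channels. Over all genes it was 0.01 and -0.02. Whether Trpa1 and Trpv1 moved beyond these lists was not tested. Without WT CFA library 2, Trpa1 passed under CFA (adjusted p = 0.00168), and without library 1 its difference fell to -0.46 (0.252). Trpv1 had adjusted p of 0.347 and 0.0770 without library 1 and 2.

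Many of the genes higher in the iKO with or without CFA were close to silent in WT ganglia. Of the 303 genes called higher under CFA, 137 (45.2%) were also called higher under vehicle, which is 8.17% of the 1676 genes called higher there. Over all genes tested, 8.28% were called higher under vehicle and 1.5% under CFA. The comparisons share no library, although they share 1 estimate of spread. For 124 of the 137 the interaction test did not pass. The mean over the 4 WT libraries was under 2 CPM, a limit set after the values were seen, in 100 of the 137 (73.0%) and in 30.8% of all genes tested. The WT level is 1 side of the difference by which the 137 were called. A call as higher thus favours a low WT level, and this share describes the called genes without being separate support. The start-site sequences of 4 such genes are shown because their transcripts were near 0 in the WT libraries, present in every iKO library, and called in each alternative analysis. They are RefSeq sequences of GRCm38.p6, each from 250 bases before to 50 bases after the transcription start, 5′ to 3′ on the gene's strand, and all 4 symbols were found in that table. Capitals mark CG dinucleotides, the sites of DNA methylation. The stretches are chr10:115184973-115185272, minus strand, for Tph2; chr1:106860925-106861224, plus strand, for Serpinb5; chr5:90490464-90490763, plus strand, for Afp; and chr2:70561879-70562178, plus strand, for Gad1.
Tph2: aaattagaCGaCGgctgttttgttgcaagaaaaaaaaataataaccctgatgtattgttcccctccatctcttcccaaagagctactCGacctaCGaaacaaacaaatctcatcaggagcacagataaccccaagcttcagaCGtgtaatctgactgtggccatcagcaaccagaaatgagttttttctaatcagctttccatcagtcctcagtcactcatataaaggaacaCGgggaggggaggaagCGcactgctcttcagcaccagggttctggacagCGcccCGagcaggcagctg
Serpinb5: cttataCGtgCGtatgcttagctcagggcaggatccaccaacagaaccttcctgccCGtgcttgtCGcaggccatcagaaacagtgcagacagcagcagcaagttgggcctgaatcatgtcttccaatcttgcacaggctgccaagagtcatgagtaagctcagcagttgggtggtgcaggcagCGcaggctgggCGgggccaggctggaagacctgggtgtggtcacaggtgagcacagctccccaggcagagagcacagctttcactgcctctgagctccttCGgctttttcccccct
Afp: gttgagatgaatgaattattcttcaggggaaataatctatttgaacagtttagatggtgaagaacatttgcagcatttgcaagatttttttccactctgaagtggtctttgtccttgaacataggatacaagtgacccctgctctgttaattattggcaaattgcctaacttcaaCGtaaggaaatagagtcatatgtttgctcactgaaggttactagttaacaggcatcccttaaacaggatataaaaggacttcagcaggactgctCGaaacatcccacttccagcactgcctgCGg
Gad1: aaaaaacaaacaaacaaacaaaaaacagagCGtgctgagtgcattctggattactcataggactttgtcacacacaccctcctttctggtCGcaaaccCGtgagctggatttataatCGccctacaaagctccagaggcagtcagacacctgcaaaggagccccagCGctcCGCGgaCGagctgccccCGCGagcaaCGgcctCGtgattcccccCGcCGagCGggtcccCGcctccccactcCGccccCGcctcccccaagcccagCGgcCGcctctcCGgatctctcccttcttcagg
The windows held 9, 7, 3 and 21 CG dinucleotides in this order, at a GC content of 47.3%, 58.3%, 40% and 60%, so the 4 starts ranged from CG-poor to CG-rich.

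The Tph2 window contained, on the sense strand, both half-sites of the RE1 element, which the repressor REST binds in genes of neurons. Searched on both strands, the left part TTCAGCACC lay in 0.371% of the 32851 start-site windows of the table, the right part GGACAGCGC in 0.405%, and both in 5 windows (0.0152%), among them Tph2 but none of the other 3 shown. The pair was looked for after the sequence had been read. In the stretch that spans them, 8 bases apart, the half-sites are in capitals.
Tph2 excerpt: TTCAGCACCagggttctGGACAGCGC
The match describes the letters from base 9 to base 34 after the start, and binding was not measured.

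Tph2, the neuronal tryptophan hydroxylase that sets the rate of serotonin synthesis, had the smallest p of all genes and is named for that after its values were seen. It was at 1.52 and 1.68 CPM in the WT CFA libraries and 78.2 and 83.1 CPM in the iKO CFA libraries, a log2 fold change of 5.66 ± 0.20 (adjusted p = 1.68e-05, edgeR). Vehicle libraries gave 1.24 and 1.31 CPM against 88.6 and 82.0 CPM. Library values thus fell into a low WT level and a high iKO level under both treatments, and the interaction test did not pass (adjusted p = 0.312). Serpinb5, a member of the serpin family also called maspin and known from epithelia, was at 1.34 and 2.36 CPM in the WT and 173 and 150 CPM in the iKO after CFA (6.46 ± 0.31, adjusted p = 5.2e-05, edgeR). Under vehicle it was at 1.57 and 1.43 CPM against 212 and 184 CPM. Gad1, which makes GABA from glutamate in inhibitory neurons, was at 0.561 and 0.274 CPM in the WT CFA libraries and 18.2 and 16.7 CPM in the iKO CFA libraries (5.34 ± 0.36, adjusted p = 0.000306, edgeR). Afp, the fetal serum protein alpha-fetoprotein of liver and yolk sac, was at 0.214 and 0.240 CPM against 14.2 and 18.2 CPM (6.14 ± 0.33, adjusted p = 8.58e-05, edgeR). Gad1 also counts among 10 tested spinal cord genes, of which 2 were called (with Aqp4) and whose summed CPM was 37.2 and 44.8 in the WT and 79.0 and 82.4 in the iKO under CFA; a part of spinal cord RNA in Gad1 was not tested.

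Other genes of this pattern had no or hardly any WT reads. Cst12, a member of the cystatin family, had 0 reads in both WT CFA libraries and 923 reads in the iKO (12.7 and 13.7 CPM), at least 294-fold higher when the WT group is set at 3 reads. Prss41, a serine protease, also had 0 WT reads under CFA and measured 7.86 and 8.83 CPM in the iKO, at least 186-fold higher; under vehicle the WT libraries held 1.47 and 1.22 CPM, and the interaction passed (adjusted p = 0.00241). Nt5el was at 0.0267 and 0 CPM against 4.34 and 2.38 CPM, a ratio of 221 with a 95% counting interval from 39.3 to 8768. For Acoxl, a relative of the peroxisomal acyl-CoA oxidases, values of 0 and 0.0684 CPM stood against 4.43 and 3.12 CPM, a ratio of 125 (34.2 to 1037). The counting intervals cover counting error only. S100a5, a calcium-binding S100 protein known from olfactory neurons, was at 0.134 and 0 CPM against 4.34 and 6.09 CPM (adjusted p = 0.00834, edgeR), and Crct1, from the epidermal differentiation cluster, at 0.214 and 0 CPM against 6.75 and 6.39 CPM (adjusted p = 0.0118). Magea13, of a family otherwise read mainly in germ cells and tumours, was the 1 called gene among 23 tested germline genes and was at 0.401 and 0.616 CPM in the WT and 14.8 and 13.7 CPM in the iKO (4.81 ± 0.34, adjusted p = 0.000331, edgeR). Of these 11 genes, all passed without either WT CFA library or any vehicle library, while Crct1 (adjusted p = 0.0679) was lost without iKO CFA library 1, and S100a5 and Crct1 (0.0608 and 0.0684) without iKO CFA library 2.

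**Figure D2:**
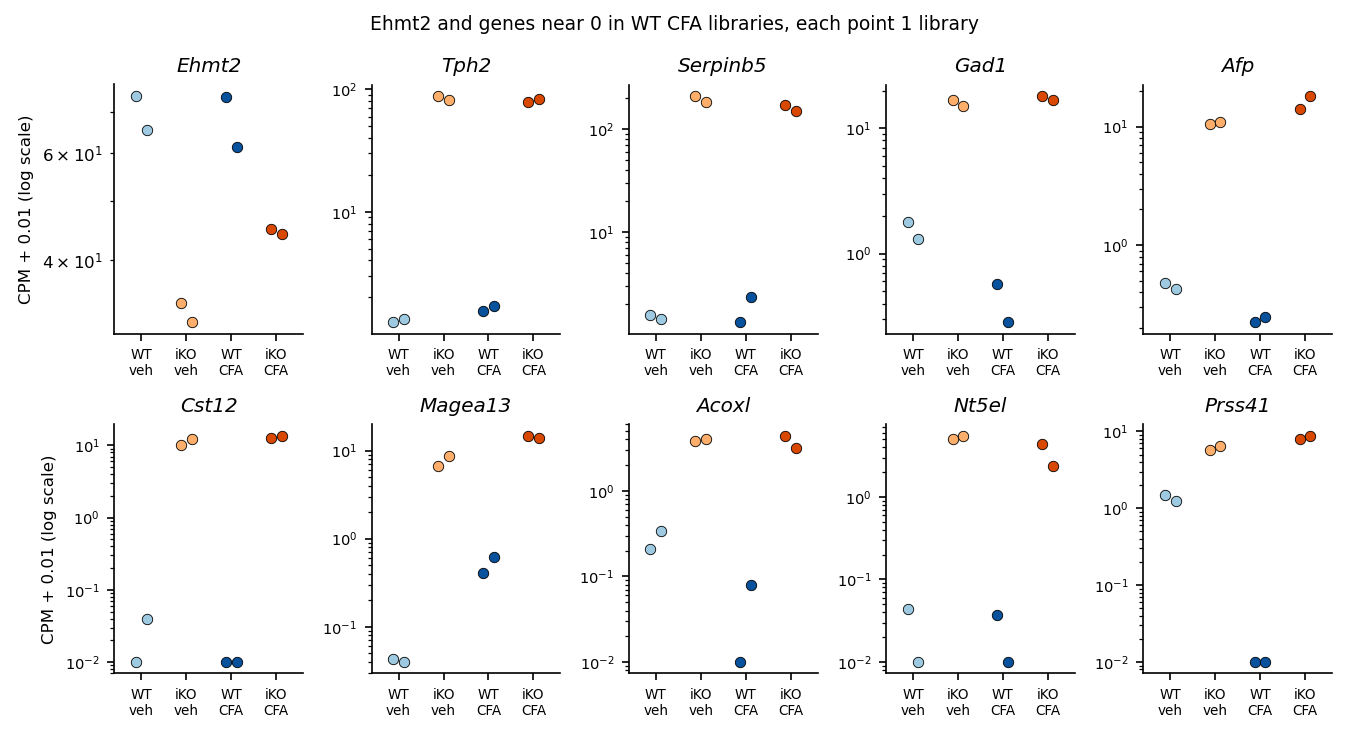
CPM plus 0.01 on a log axis for Ehmt2 and 9 genes near 0 in the WT CFA libraries, by genotype and treatment, with 1 point per library. Each of the 9 genes is high in all 4 iKO libraries, for Tph2 between 78.2 and 88.6 CPM, and low in the WT ones, where Prss41 differs between vehicle and CFA.

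Other genes called higher under both treatments were present in WT ganglia. Glo1, a glyoxalase that detoxifies methylglyoxal, was at 218 and 221 CPM in the WT and 430 and 436 CPM in the iKO after CFA (log2 fold change 0.98 ± 0.17, adjusted p = 0.0271, edgeR) and had a log2 fold change of 1.59 under vehicle. Capza1, a subunit of the actin capping protein, was at 38.5 and 36.3 CPM against 85.7 and 97.1 CPM (1.29 ± 0.17, adjusted p = 0.00834). Both are named after their values were seen. Kcnmb1, the beta subunit of the BK potassium channel, was at 48.3 and 45.8 CPM against 106 and 96.8 CPM (1.11 ± 0.16, adjusted p = 0.0140). Smyd3, a SET domain methyltransferase, was at 43.5 and 33.7 CPM against 81.0 and 75.7 CPM (1.02 ± 0.18, adjusted p = 0.0315). The hair cell channel gene Tmc2 was instead near silent in the WT and measured 0.347 and 0.342 CPM against 2.80 and 1.754 CPM (2.71 ± 0.47, adjusted p = 0.0289). These 5 calls kept their direction but none passed without iKO CFA library 1 or 2 (adjusted p up to 0.213 and 0.226). Capza1 and Kcnmb1 passed without either WT vehicle library, and Capza1 alone without either iKO vehicle library (highest adjusted p of the others 0.0971).

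Several of the largest fold changes belonged to pairs of a gene and a copy of it. Ndufs5, a subunit of respiratory complex I, was at 12.1 and 17.9 CPM in the WT CFA libraries and 143 and 141 CPM in the iKO CFA libraries (3.24 ± 0.23, adjusted p = 0.000314, edgeR). Its copy Ndufs5-ps went the other way, with 91.4 and 130 CPM in the WT against 0.482 and 0.685 CPM in the iKO (-7.55 ± 0.43, adjusted p = 0.00013). In the 4 vehicle libraries Ndufs5-ps was between 0.245 and 1.17 CPM, so that the WT CFA pair stood alone among the 8 libraries. With the reads of both summed, the difference between genotypes was 0.17 on the log2 scale and did not pass (adjusted p = 0.745). Rnps1, of the exon junction complex, was at 57.0 and 38.8 CPM in the WT CFA libraries against 17.1 and 15.3 CPM in the iKO, and Rnps1-ps at 0.347 and 0.308 CPM against 26.4 and 31.5 CPM; their sum differed by -0.09. Atp6v0c, a subunit of the proton pump of lysosomes and vesicles, was at 325 and 218 CPM against 95.1 and 97.4 CPM, and Atp6v0c-ps2 at 2.27 and 1.745 CPM against 151 and 157 CPM; their sum differed by -0.12. Hmga1 and Hmga1b, chromatin proteins that bind AT-rich DNA, did likewise (57.2 and 50.4 against 23.6 and 23.1 CPM for Hmga1, 4.81 and 3.52 against 26.4 and 26.3 CPM for Hmga1b, sum -0.22).

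In all 4 of these pairs the WT CFA libraries differed from the other 6: Rnps1-ps, Atp6v0c-ps2 and Hmga1b each had at least 18.1 CPM in the WT vehicle and iKO vehicle libraries. The WT CFA pair thus also stood apart from the WT vehicle pair, which is labelled with the same genotype. Atp6v0c-ps2 also differed by genotype under vehicle, at 40.5 and 56.9 CPM in the WT and 196 and 202 CPM in the iKO. Its sum with Atp6v0c passed under vehicle (1.23, adjusted p = 0.00912, edgeR). Whether all groups shared 1 strain background and 1 dissection is not given in the sources used here. Rpl15-ps6 and Rpl15-ps2, copies of a ribosomal protein gene, were also lowest in the WT CFA libraries. Rpl15-ps6 was at 0.267 and 0.513 CPM against 33.8 and 40.8 CPM in the iKO CFA libraries, and Rpl15-ps2 at 0.0801 and 0.205 CPM against 9.67 and 7.40 CPM. The summed reads of Rpl15 and its copies differed by 0.06. Glo1 with Glo1-ps was the exception under CFA. Glo1-ps was at 0.374 and 0.513 CPM in the WT CFA libraries and 37.2 and 45.8 CPM in the iKO (6.55 ± 0.33, adjusted p = 6.75e-05, edgeR), and the sum still passed (1.11, adjusted p = 0.0183). In all, 14 of 229 tested copies of a counted gene were called, 12 higher and 2 lower, against 1.5% and 0.208% of all genes. Of 17 families with a called member, the summed reads passed in 5. With copies summed into their named genes 297 genes were called. How reads that match a gene and its copy were assigned was not given in the sources used here, so the values of such genes are uncertain. Of the 11 named here, Rnps1, Atp6v0c and Hmga1 did not pass without iKO CFA library 1 or 2 (adjusted p up to 0.156 and 0.153); the others passed without any 1 library.

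**Figure D3:**
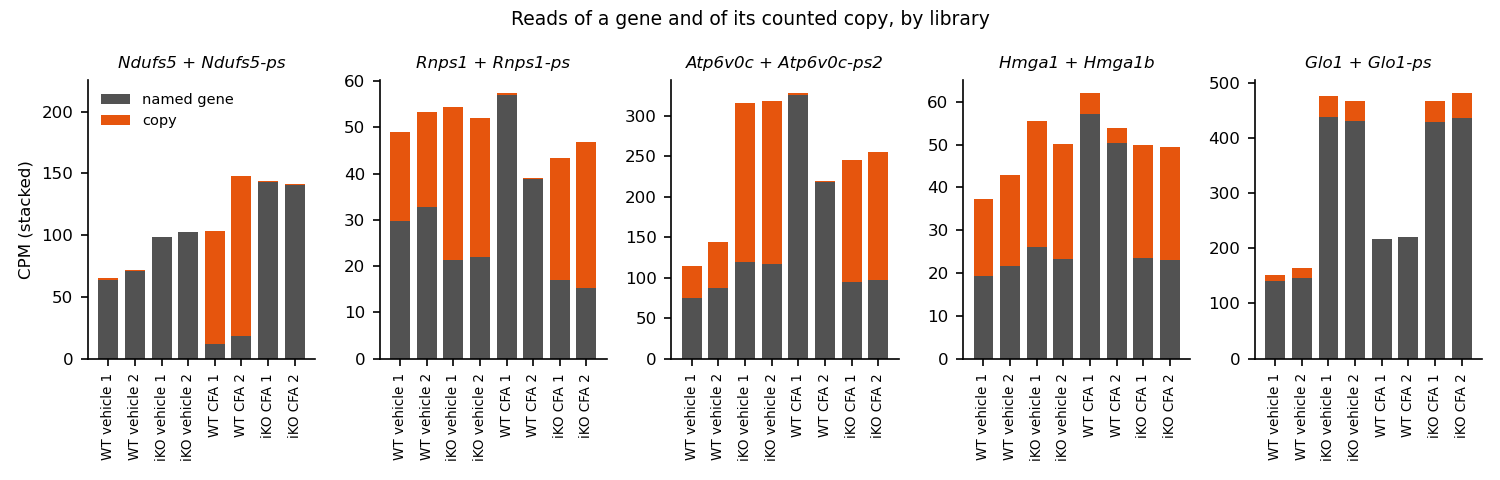
CPM of a gene (dark) and of its counted copy (orange), stacked, in each of the 8 libraries for 5 pairs; bars start at 0. In Ndufs5 the copy makes up most of the bar in the WT CFA libraries alone, in Rnps1, Atp6v0c and Hmga1 it is smallest in them, and Glo1 is higher in all 4 iKO libraries.

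By the type given in the RefSeq gene table, 32 of 1276 pseudogenes (2.51%), 272 of 15880 protein-coding genes (1.71%) and 37 of 2620 long noncoding RNAs (1.41%) were called; 19895 tested genes matched the table by symbol. The share called by chromosome ranged from 0.541% on chromosome 12 to 3.19% on chromosome 13.

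A further set of genes, higher in the iKO under CFA, did not pass under vehicle or was lower there. Of the 303 genes higher under CFA, 113 did not pass under vehicle and 53 were called lower in the iKO there; in all 53 the interaction passed. Lymphocyte genes led the latter. Jchain, which joins antibody chains and marks plasma cells, was at 0.961 and 0.445 CPM in the WT CFA libraries and 23.4 and 31.5 CPM in the iKO CFA libraries (5.25 ± 0.61, adjusted p = 0.00478, edgeR). Under vehicle the order was the reverse, with 1944 and 780 CPM in the WT against 4.73 and 2.30 CPM in the iKO. Mzb1, a chaperone of antibody secretion, and Igl, an immunoglobulin light chain, had 0 reads in the WT CFA libraries and were at least 24.6-fold and 10.53-fold higher in the iKO (1.02 and 1.18 CPM for Mzb1, 0.452 and 0.493 CPM for Igl). The level in the iKO was low in absolute terms for these 2 genes. Of 22 tested lymphocyte genes 7 were higher and 0 lower, against 1.5% and 0.208% of all genes. Their median log2 fold change was 2.43 (1.55 and 3.63 without WT CFA library 1 and 2), against -0.02 for all genes. Among the 7 was Cd3e of the T cell receptor complex (0.0534 and 0.205 against 3.31 and 3.59 CPM, adjusted p = 0.00733, edgeR). Cd3e was not lower under vehicle, where its log2 fold change was 0.02 (adjusted p = 0.983, edgeR). The others were Il7r, the interleukin-7 receptor (0 reads in the WT, 0.693 and 1.40 CPM in the iKO), Nkg7 of cytotoxic granules (0.0534 and 0.171 against 1.81 and 1.67 CPM), the T cell coreceptor Cd4 (0.881 and 0.376 against 3.16 and 3.54 CPM) and Cd79b of the B cell receptor (0.561 and 0.548 against 3.13 and 3.40 CPM). Of these 8 genes, 7 passed without WT CFA library 1 (Mzb1 did not), 3 and 1 without iKO CFA library 1 and 2, and 4 and 3 without WT vehicle library 1 and 2. Without the whole WT vehicle pair Jchain and Cd3e passed (highest adjusted p of the others 0.214). Without iKO vehicle library 1 or 2, Cd4 was lost (0.0627 and 0.0616).

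In summed CPM, granule genes of neutrophils and mast cells set the iKO CFA libraries apart from all others. The summed CPM of 24 such genes was 1865 and 1885 in the iKO CFA libraries, 136 and 372 in the WT CFA libraries and between 120 and 227 in the vehicle libraries. Of the 24, 7 were higher and 0 lower, against 1.5% and 0.208% of all genes. Their median log2 fold change was 3.05 (2.34 and 4.95 without WT CFA library 1 and 2). In 23 of them both iKO values were above both WT values, against 21.6% of all genes. Ltf, the iron-binding lactoferrin of neutrophil granules, was at 5.10 and 25.3 CPM in the WT and 175 and 183 CPM in the iKO (3.56 ± 0.62, adjusted p = 0.0295, edgeR). WT CFA library 2 was above library 1, and both were below the iKO. Mmp9, gelatinase B, was at 1.18 and 4.86 CPM against 55.0 and 59.6 CPM (4.27 ± 0.61, adjusted p = 0.0140), and Mmp8, the neutrophil collagenase, at 0.401 and 4.21 CPM against 38.8 and 41.4 CPM (4.15 ± 0.79, adjusted p = 0.0416). The chemokine receptor Cxcr2 (0.187 and 0.753 against 11.5 and 14.9 CPM), myeloperoxidase Mpo (2.06 and 2.29 against 17.4 and 18.9 CPM), the protease Prtn3 (0.534 and 1.88 against 9.76 and 9.32 CPM) and the mast cell tryptase Tpsab1 (0 and 0.205 against 4.37 and 2.88 CPM) completed the 7. Red cell genes were at 1914 and 1810 summed CPM in the iKO CFA libraries and 399 and 1820 in WT CFA libraries 1 and 2. The granule sum was also higher in WT CFA library 2 (372) than in library 1 (136). A part of blood in the granule genes was not tested. The interaction passed for Mmp9 and Tpsab1 (adjusted p = 0.0428 and 0.0289, edgeR). It did not pass for Mpo (0.0580), Cxcr2 (0.0860), Ltf (0.131), Mmp8 (0.165) and Prtn3 (0.381). Over the 24 genes it passed for 3, and their median log2 fold change under vehicle was 0.69. The calls did not survive the loss of an iKO library: without iKO CFA library 1 or 2 none of the 7 passed (adjusted p up to 0.183 and 0.213). All 7 passed without either WT CFA library, 3 without WT vehicle library 1 or 2, and 4 without iKO vehicle library 1 or 2 (adjusted p up to 0.100).

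Fewer macrophage genes passed. Itgam, the integrin CD11b of myeloid cells, was at 3.82 and 8.69 CPM in the WT and 22.8 and 23.0 CPM in the iKO (1.88 ± 0.35, adjusted p = 0.0394, edgeR). Ptprc, the pan-leukocyte marker CD45, was at 3.71 and 8.21 CPM against 21 and 24.1 CPM (1.93 ± 0.37, adjusted p = 0.0419). These were the 2 called of 30 macrophage genes (median 0.49; 0.040 and 1.451 without WT CFA library 1 and 2). Without library 1 it was 3 of 30, where 2.48% of all genes were called higher, and without library 2 it was 25 of 30, where 11.4% were. Their summed CPM was 628 and 1429 in the WT and 1651 and 1766 in the iKO, so that WT CFA library 2 was close to the iKO. The median of 44 cytokine and chemokine genes was 1.001, or 0.96 with genes at 0 reads set at the floor of 3 reads. Without WT CFA library 1 and 2 it was 0.48 and 1.75. Of the 44 genes, 2 passed. They were Il1rn, the antagonist of the interleukin-1 receptor (0.214 and 0.616 against 6.06 and 5.98 CPM, adjusted p = 0.00788), and Ptgs2, the inducible cyclooxygenase. Ptgs2 had 1 WT read against 72 in the iKO, a ratio of 68.9 with a 95% counting interval from 11.98 to 2758. Anxa1, which acts in the resolution of inflammation, was at 5.31 and 12.7 CPM against 62.7 and 64.9 CPM (2.83 ± 0.39, adjusted p = 0.0118) and was the 1 called of 28 nerve injury genes. The median of that list was -0.29 (-0.27 and -0.26), and 21 of 28 were below zero. DESeq2 called 2 higher and 5 lower (4.41% and 1.68% of all genes). None of 54 interferon response genes passed in edgeR (median 0.61), where 13 were higher at an unadjusted p under 0.05 (9.06% of all genes were) and DESeq2 called 6 higher (4.41% of all genes). The interferon median was 0.33 without WT CFA library 1 and 1.11 without library 2.

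Complement genes were among those higher in the iKO: 3 of 23 passed, all higher, against 1.5% of all genes. Their median log2 fold change was 0.82 (0.53 and 1.32 without WT CFA library 1 and 2). Cfb, factor B of the alternative pathway, was at 5.21 and 4.59 CPM in the WT and 11.0 and 11.8 CPM in the iKO (1.21 ± 0.19, adjusted p = 0.0211, edgeR). It lies in the same region of chromosome 17 as Ehmt2, and was the 1 called of 21 tested genes listed for that region (median -0.13). Under vehicle Cfb was lower in the iKO (-2.61, adjusted p = 0.000332, edgeR). The receptor C5ar1 was at 2.14 and 1.85 CPM against 8.56 and 8.09 CPM (2.06 ± 0.34, adjusted p = 0.0243). Cfd, factor D, which is also the fat cell protein adipsin, was at 1.39 and 5.92 CPM against 28.8 and 44.0 CPM (3.33 ± 0.63, adjusted p = 0.0414). Fabp4, another fat cell gene, was the second called of 17 adipocyte genes (2.003 and 4.38 against 25.4 and 29.2 CPM, adjusted p = 0.0275, edgeR). The median of that list was 1.17 (1.39 and 1.40 without WT CFA library 1 and 2), and 14 of 17 were above zero. Its summed CPM went the other way, at 2530 and 2358 in the WT and 2010 and 2007 in the iKO. Of the 8 genes Itgam, Ptprc, Il1rn, Ptgs2, Anxa1, Cfb, C5ar1 and Cfd, all passed without either WT CFA library, 1 (Il1rn) without iKO CFA library 1 and 0 without library 2 (adjusted p up to 0.251). Without WT vehicle library 1 or 2 only Il1rn, Anxa1 and C5ar1 passed (adjusted p of the others up to 0.0993), and without iKO vehicle library 1 or 2 Itgam, Ptprc and Cfb were lost (up to 0.0641). Fabp4 did not pass without either iKO CFA library (adjusted p up to 0.167).

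Some genes of connective tissue and vessels were higher in the iKO under CFA. Of 41 fibroblast and matrix genes 8 were higher and 0 lower (median log2 fold change 0.72, or 0.34 and 1.18 without WT CFA library 1 and 2). Of 22 endothelial genes 4 were higher and 0 lower (median 0.39, or 0.064 and 0.91 without WT CFA library 1 and 2). Over all genes 1.5% were called higher and 0.208% lower. Pi16, a marker of adventitial fibroblasts, was at 1.95 and 2.84 CPM in the WT and 16.6 and 17.6 CPM in the iKO (2.84 ± 0.29, adjusted p = 0.00312, edgeR). Col12a1, a collagen that coats fibrils, was at 10.6 and 15.7 CPM against 56.7 and 64.7 CPM (2.21 ± 0.24, adjusted p = 0.00362), and Eln, elastin, at 3.31 and 3.97 CPM against 18.6 and 19.8 CPM (2.40 ± 0.26, adjusted p = 0.0038). For these 3 genes WT CFA library 2 was above library 1, and both were well below the iKO. Thbs1 (11.2 and 15.02 against 55.9 and 55.0 CPM), Loxl1, which crosslinks elastin (3.07 and 3.97 against 11.0 and 12.6 CPM), and fibronectin, Fn1 (27.5 and 51.8 against 136 and 169 CPM), were also called. The collagen VI chains Col6a1 (20.4 and 33.8 against 66.9 and 66.6 CPM) and Col6a2 (20.5 and 33.3 against 81.3 and 84.0 CPM) made up the 8. Vwf, the endothelial clotting protein von Willebrand factor, was at 17.5 and 18.2 CPM against 67.0 and 72.9 CPM (1.97 ± 0.18, adjusted p = 0.00134). The other endothelial genes were Plvap of fenestrated capillaries (4.51 and 10.2 against 44.1 and 54.0 CPM), the transforming growth factor coreceptor Eng (9.99 and 16.6 against 34.7 and 37.9 CPM) and the transcription factor Sox18 (2.19 and 1.68 against 6.63 and 6.003 CPM). For the matrix list as a whole WT CFA library 2 was close to the iKO: it summed to 3602 and 7345 CPM in the WT CFA libraries and 7437 and 7727 CPM in the iKO CFA libraries. All 12 genes passed without either WT CFA library; 5 passed without iKO CFA library 1 (Pi16, Col12a1, Eln, Vwf and Plvap) and 3 without library 2 (Pi16, Col12a1 and Vwf), with adjusted p up to 0.256 for the rest. Without WT vehicle library 1 or 2, Col6a1, Col6a2, Fn1, Eng and Sox18 were lost (up to 0.0985), and without iKO vehicle library 1 or 2, Col6a1, Fn1, Eng and Sox18 (up to 0.0868).

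A pair of imprinted neighbours was also higher in the iKO under CFA. Igf2, the fetal growth factor expressed from the paternal allele, was at 16.5 and 60.1 CPM in the WT CFA libraries and 292 and 324 CPM in the iKO CFA libraries (3.01 ± 0.51, adjusted p = 0.0268, edgeR). H19, the maternally expressed RNA beside it, was at 5.795 and 17.4 CPM against 111 and 113 CPM (3.28 ± 0.53, adjusted p = 0.0228). They were the 2 called of 46 imprinted genes, whose median was -0.21 (-0.014 and -0.24 without WT CFA library 1 and 2), and both were higher in WT CFA library 2 than in library 1. Without iKO CFA library 1 or 2 neither passed (adjusted p up to 0.0970 and 0.147), and without WT vehicle library 1 or 2 Igf2 was lost (0.0730 and 0.0765). Single genes of other tissues passed as well. Aqp4, an astrocyte water channel, was at 8.73 and 8.86 CPM against 16.0 and 22.3 CPM (adjusted p = 0.0459, edgeR). The other was Alpl, alkaline phosphatase, the 1 called of 13 bone and cartilage genes (5.72 and 8.18 against 17.6 and 17.98 CPM, adjusted p = 0.0289). Both were lost without any 1 of the iKO CFA or vehicle libraries, with adjusted p up to 0.360. Alpl was also called higher under vehicle (0.81, adjusted p = 0.0454, edgeR). The interaction passed for H19 (adjusted p = 0.0305, edgeR) but not for Igf2 (0.141), Aqp4 (0.240) or Alpl (0.288). In a bulk library, more cells of a type and more RNA per cell cannot be told apart.

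**Figure D4:**
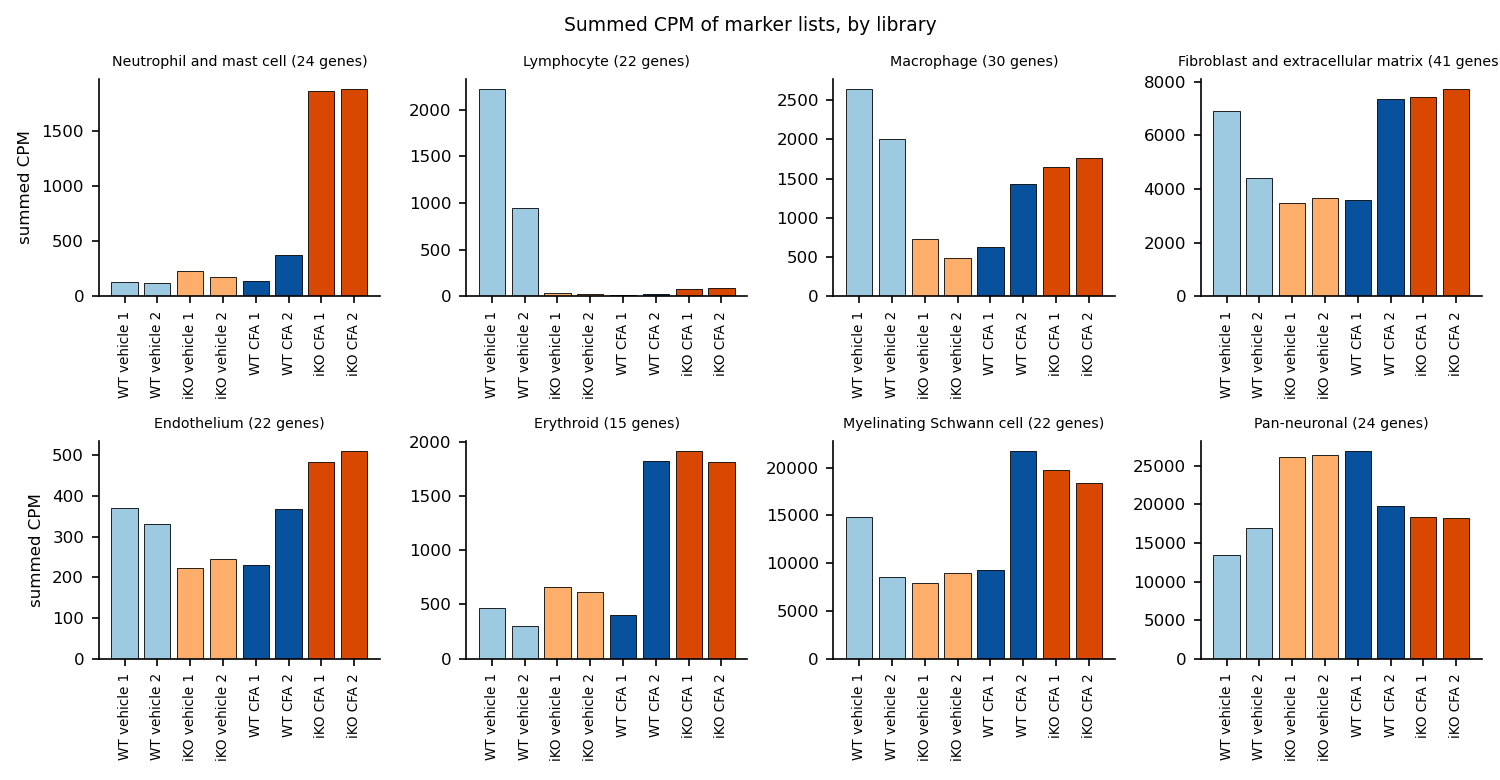
Summed CPM of 8 marker lists in each of the 8 libraries, with bars from 0 and a scale of its own in each panel. Granulocyte genes are high in the iKO CFA libraries alone (1865 and 1885), while for red cell, Schwann cell, matrix and pan-neuronal genes WT CFA library 2 stands nearer to the iKO CFA libraries than to WT CFA library 1.

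The 42 lower genes were fewer and smaller in effect, and several belong to neurons. Besides Ndufs5-ps, the largest falls included H2af-ps2, a histone pseudogene with 5.34 and 3.94 CPM in the WT and 0 reads in the iKO after CFA, at least 110-fold lower. The histone gene H2ac18 was at 9.51 and 17.8 CPM against 0.603 and 1.12 CPM (log2 fold change -3.97 ± 0.60, adjusted p = 0.0160, edgeR). Wdfy1, an endosomal adaptor, was at 68.9 and 49.4 CPM in the WT and 9.76 and 7.07 CPM in the iKO (-2.81 ± 0.25, adjusted p = 0.00136), and was also lower under vehicle (-1.37). Tmem267 was at 22.4 and 25.2 CPM against 2.44 and 4.96 CPM (-2.68 ± 0.37, adjusted p = 0.0112). The phosphatidylserine decarboxylase pseudogene Pisd-ps3 was at 47.4 and 67.0 CPM against 11.4 and 13.5 CPM (-2.20 ± 0.22, adjusted p = 0.00257) and lower in both treatments. Of the 42 genes, 11 (26.2%) were also called lower under vehicle, 0.583% of the 1888 called lower there, and none was called higher. Over all genes tested 9.33% were called lower under vehicle and 0.208% under CFA.

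Kcnv1, a silent subunit that modifies Kv2 potassium channels, was at 74.4 and 55.6 CPM in the WT and 10.9 and 14.8 CPM in the iKO (-2.34 ± 0.28, adjusted p = 0.00587, edgeR). Chrna6, a nicotinic acetylcholine receptor subunit, was at 105 and 92.9 CPM against 25.7 and 29.1 CPM (-1.85 ± 0.25, adjusted p = 0.0115), while the 4 vehicle libraries lay between 23.5 and 38.7 CPM, so that the WT CFA pair stood out. Calb1, the calcium buffer calbindin, was at 29.8 and 31.2 CPM against 8.38 and 7.04 CPM (-1.98 ± 0.24, adjusted p = 0.00542). A further 6 genes had adjusted p between 0.0105 and 0.0492. Gabrb1, a GABA-A receptor subunit, was at 5.64 and 3.01 CPM against 0.934 and 0.822 CPM. The others were Unc5d, a netrin receptor family member (6.52 and 4.17 against 1.11 and 0.713 CPM), Cpne9, a copine (6.17 and 4.86 against 1.21 and 0.905 CPM), C1ql4, a secreted C1q-like protein (21.5 and 14.7 against 4.64 and 4.36 CPM), Mab21l1 (16.7 and 10.03 against 4.43 and 3.48 CPM) and the protease Pappa, which cleaves insulin-like growth factor binding proteins (14.2 and 7.08 against 3.37 and 1.64 CPM). With H2af-ps2, H2ac18, Wdfy1, Tmem267 and Pisd-ps3 these are 14 genes. Without WT CFA library 1, Pappa was lost (0.0509), and without library 2 all passed. Without iKO CFA library 1, 3 passed (H2af-ps2, Wdfy1 and Pisd-ps3), and without library 2 these with Tmem267 and Kcnv1 (adjusted p of the others up to 0.303). Without any 1 vehicle library Cpne9, Gabrb1, Pappa and Mab21l1 were lost, and Unc5d too without WT vehicle library 2 (up to 0.110).

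Neuronal gene lists had medians below zero that came nearer to zero without WT CFA library 1. None of 24 pan-neuronal genes passed in edgeR, where 9 were lower and 0 higher at an unadjusted p under 0.05 (5.6% of all genes were lower at that p) and DESeq2 called 4 lower (1.68% of all genes). Their median was -0.53 (-0.11 and -0.76 without WT CFA library 1 and 2), 23 of 24 were below zero, and both WT values lay above both iKO values in 14, against 16.7% of all genes. Avil, the gene whose promoter drives the Cre, was at 942 and 398 CPM in the WT and 221 and 175 CPM in the iKO (-1.76 ± 0.37, adjusted p = 0.0601, edgeR), and passed without WT CFA library 1 or 2 (0.0185 and 6.19e-05). Isl1, a transcription factor of sensory neurons, was at 93.9 and 89.8 CPM against 58.9 and 58.2 CPM (-0.65 ± 0.17, adjusted p = 0.113), and passed without WT CFA library 1 or 2 (0.0488 and 0.00575). The summed CPM of the pan-neuronal list was 26925 and 19866 in the WT and 18364 and 18198 in the iKO after CFA, and without WT CFA library 2 17 of 24 were called lower (15.4% of all genes), against 2 without library 1 (0.815% of all genes). Satellite glia and myelinating Schwann cell lists had medians of -0.01 and 0.33 with 0 of 24 and 0 of 22 called in edgeR. At an unadjusted p under 0.05, 2 satellite glia genes were higher and 2 lower (9.06% and 5.6% of all genes). DESeq2 called 2 higher and 1 lower (4.41% and 1.68% of all genes). For myelinating Schwann cell genes there were 0 by either measure. The medians of both lists changed sign with the library left out. Satellite glia had -0.24 and 0.20 without WT CFA library 1 and 2, and myelinating Schwann cells -0.039 and 0.98.

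The medians of channel lists were also below zero, and close to zero without WT CFA library 1. Of 35 transduction channels Tmc2 alone passed (median -0.27, or -0.024 and -0.43 without WT CFA library 1 and 2). Piezo1, a mechanosensitive channel of vessels and other tissues, measured 5.02 and 4.76 CPM against 7.53 and 10.3 CPM (adjusted p = 0.150, edgeR). Of 78 potassium channel genes, 2 were higher and 1 lower (median -0.51). Both iKO values lay below both WT values in 29 and above them in 7, against 16.7% and 21.6% of all genes. Without WT CFA library 1 or 2 the median of this list was -0.049 or -0.88. Kcnj2, the inward rectifier Kir2.1, was at 3.82 and 2.64 CPM in the WT and 12.8 and 13.3 CPM in the iKO (2.01 ± 0.27, adjusted p = 0.0111); it and Kcnmb1 were the higher ones, and Kcnv1 the lower. None of 15 sodium channel genes passed in edgeR (median -0.65). At an unadjusted p under 0.05, 1 was higher and 5 lower, against 9.06% and 5.6% of all genes. DESeq2 called 1 higher and 3 lower, against 4.41% and 1.68% of all genes. The sodium channel median was -0.035 or -0.76 without WT CFA library 1 or 2. Scn9a, the nociceptor sodium channel Nav1.7, was at 532 and 329 CPM against 229 and 198 CPM (-1.01 ± 0.26, adjusted p = 0.113), and passed without WT CFA library 2 (-1.32, 0.000517) but not without library 1 (-0.62, 0.0953). The auxiliary subunit Scn2b leaned the other way, at 82.5 and 52.3 CPM against 145 and 143 CPM (1.10 ± 0.24, adjusted p = 0.0671), was called higher under vehicle (1.99), and passed under CFA without WT CFA library 1 or 2 (0.00116 and 0.00482). Kcnj2 was lost without iKO CFA library 1 or 2 (adjusted p = 0.0825 and 0.0913).

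Among 37 glutamate and GABA receptor genes Gabrb1 was the 1 called (median -0.52, or -0.26 and -0.83 without WT CFA library 1 and 2). Both iKO values lay below both WT values in 19, against 16.7% of all genes. None of 24 neuropeptide genes (median -0.40), 22 peptidergic (median -0.39) and 25 non-peptidergic nociceptor genes (median -0.47) passed in edgeR. In each list 7 were lower at an unadjusted p under 0.05 (5.6% of all genes), and 0, 1 and 0 were higher (9.06%). DESeq2 called 2, 4 and 4 lower, against 1.68% of all genes. Without WT CFA library 1 the medians of these lists were -0.31, -0.23 and 0.035, the last of the opposite sign. Without library 2 they were -0.34, -0.48 and -0.49. Gal, the peptide galanin that rises after nerve injury, was at 20.5 and 24.7 CPM in the WT and 10.2 and 13.0 CPM in the iKO after CFA (-0.95 ± 0.27, adjusted p = 0.144, edgeR; 0.0574 and 0.0438 without WT CFA library 1 and 2). The difference was smaller than under vehicle (-3.09) by the interaction test (adjusted p = 0.0149). Of 54 clustered protocadherin genes, cell surface proteins by which neurons tell self from non-self, none passed, yet 48 were below zero (median -0.51). At an unadjusted p under 0.05, 15 were lower and 1 higher, against 5.6% and 9.06% of all genes. DESeq2 called 6 lower, against 1.68% of all genes. Their median was -0.22 or -0.70 without WT CFA library 1 or 2.

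Few chromatin genes passed. None of 31 genes of H3K9 methylation, Ehmt2 among them, passed in edgeR (median -0.15). At an unadjusted p under 0.05, 1 was higher and 3 lower, against 9.06% and 5.6% of all genes. DESeq2 called 1 lower, against 1.68% of all genes. Their median was 0.12 or -0.36 without WT CFA library 1 or 2. Among 35 genes that write, read or erase marks on lysines 4 and 27 of H3, Smyd3 was the 1 called. The median of the 35 was -0.24, or 0.020 and -0.36 without WT CFA library 1 and 2. In the respiratory chain Ndufs5 was the 1 called of 67 (median 0.031, or -0.18 and 0.41 without WT CFA library 1 and 2).

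Set beside vehicle, the genotype difference under CFA was narrower in number and partly different in kind. Under vehicle 3564 genes (17.6%) passed, 1676 higher and 1888 lower in the iKO, against 345 under CFA; the spread of the WT CFA pair and the immune transcripts of the WT vehicle pair differ between these comparisons, and their part in the counts was not tested. Of the 345 genes, 139 of the higher and 17 of the lower ones passed the interaction test, and 1895 of all genes did (9.36%). Tph2, Serpinb5 and Cst12 mark the genes with like values in both treatments, and Jchain and Mzb1 those with opposite signs. With the WT vehicle pair left out of the fit, 164 genes were called under CFA, 163 of them among the 345.

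**Figure D5:**
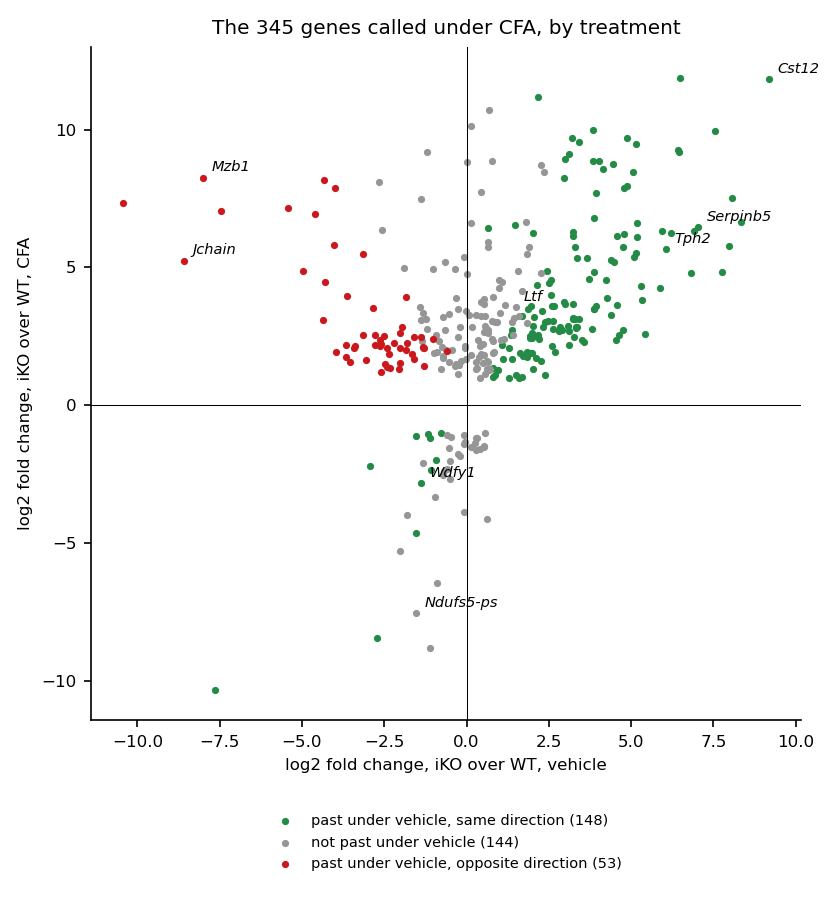
Log2 fold change of iKO over WT under CFA (vertical axis) against that under vehicle (horizontal axis) for the 345 genes called under CFA. Of these, 148 passed under vehicle in the same direction (green), 144 did not pass there (grey) and 53 passed in the opposite direction (red), all of them higher under CFA and lower under vehicle.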

How the data were processed

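Dorsal root ganglion RNA of 8 libraries (4 groups of 2) was analysed. Per the submitters' processing notes, the authors' tools were HISAT2 2.2.1, SAMtools 1.19.2 and featureCounts 2.0.6, with the build GRCm39. The deposited values are unscaled integer counts, listed by gene symbol; annotation and strand setting are not given in the sources used here. In R 4.3.3 with edgeR 4.0.16, genes were filtered with filterByExpr (20235 of 25780 kept), library sizes scaled by TMM, and 1 quasi-likelihood model with a mean per group fitted to all 8 libraries (prior degrees of freedom 4.68). Two-sided F-tests gave iKO minus WT under CFA, under vehicle, and their difference (the interaction), with Benjamini-Hochberg adjustment over all genes, so that libraries of the other groups enter the estimate of spread. CPM uses the scaled sizes. Folds against a group with 0 reads set it at 3 reads over the group; with 1 to 3 reads an exact 95% counting interval is given.

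Ehmt2, Trpa1 and Trpv1 are always named. Beyond them come the 15 largest rises and 15 largest falls among called genes whose groups did not overlap and whose mean log2 CPM was 1 or more (gene models without a name left out), the called members of 48 gene lists and up to 4 members with the smallest p. 1 gene is not reported here and was left out of its list. Members, lists and rules were chosen with earlier results of these data known. The model was tested on simulated data. Alternatives were RLE size factors, DESeq2 1.42.0, other filters and fit settings, a replicate term, and leaving out libraries. GRCm38.p6 RefSeq tables gave gene types, chromosomes and start-site sequences by symbol.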

Additional observations from a re-analysis of the deposited data

Results flagged for a closer look

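The genotype difference under CFA minus that under vehicle, tested as an interaction in edgeR's quasi-likelihood model, passed an adjusted p of 0.05 for 1895 genes, and the genes below were flagged because their difference differed between the treatments. All values are log2 differences with 2 libraries per group. Where a group had 0 reads (Prss41, Mzb1, Igl and Il7r in the WT CFA libraries) the fitted size depends on the model's prior count and is no bound.

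Immune genes had positive values: 16.26 for Mzb1, 14.51 for Igl, 13.84 for Jchain, 12.52 for Il7r, 7.59 for Nkg7, 5.69 for Cd79b, 5.02 for Cd4, 4.75 for Cd3e, 9.84 for Ptgs2, 5.88 for Ptprc, 5.85 for Tpsab1, 4.21 for Il1rn, 3.29 for Mmp9, 2.85 for Itgam, 4.79 for Anxa1, 4.65 for Cfd, 4.07 for C5ar1 and 3.83 for Cfb. So did genes of matrix, vessels and fat: 4.49 for Thbs1 and also for Fabp4, 3.43 for Eln, 2.85 for Fn1, 2.66 for Pi16, 2.07 for Col6a1, 1.78 for Col6a2, 1.70 for Col12a1, 2.58 for Vwf, 2.42 for Sox18, 2.16 for Plvap and 1.67 for Eng. The imprinted noncoding RNA H19 had 3.21.

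Among genes with a counted copy the values were 6.47 for Rpl15-ps6, 5.28 for Rpl15-ps2, 5.78 for Rnps1-ps, 5.08 for Glo1-ps, 4.22 for Atp6v0c-ps2, -2.04 for Atp6v0c, 2.68 for Ndufs5, -6.02 for Ndufs5-ps, 2.14 for Hmga1b and -1.48 for Hmga1. Genes near 0 in the WT CFA libraries gave 8.98 for Prss41, 1.97 for Gad1 and -2.94 for Magea13. Channel genes gave -1.56 for Trpa1, -1.15 for Trpv1, -1.45 for Scn9a, 2.22 for Piezo1, 2.46 for Kcnj2 and -1.28 for Kcnmb1. The remaining values were 2.14 for Gal, -1.02 for Isl1, -1.44 for Wdfy1, -2.18 for Tmem267, -1.49 for C1ql4 and -1.67 for Chrna6.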

How the results depend on the processing

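The count of 345 genes (303 higher, 42 lower) under CFA stayed within 1.5 times under RLE size factors, a stricter filter, robust estimation, without mitochondrial and red cell genes, and, chosen after seeing the data, with copies summed; without a filter the lower count was 66. DESeq2 called 1232 (893 higher, 339 lower), edgeR's newer estimate (legacy = FALSE) 543 (471 and 72), the 4 CFA libraries alone 33 (30 and 3) and, chosen after seeing the data, the fit without both WT vehicle libraries 164 (148 and 16). Leaving out 1 library gave 73 to 5819 calls (65 to 2474 higher, 7 to 3345 lower); where 1 library was left in a group, it was assumed to vary like the other groups. For vehicle the range was 394 to 8464 and for the interaction 228 to 8303, which DESeq2 put at 4133. The cause was not tested. Labels number replicates 1 and 2 in each group without stating a pairing; deviations of same-numbered WT and iKO CFA libraries correlated at 0.102, with 2 pairs too few to show one. With a replicate block 207 genes (185 and 22) passed under CFA and 1062 the interaction. Of the 91 named genes 82 passed, all kept under DESeq2, 16 in the CFA libraries alone, and none changed sign in 19 settings. Depth limited genes with few WT reads; 41 called genes had a group with 0 reads.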
